A study of Homo sapiens with 32 samples.

Results

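The genes described here encode 10 proteins of the outer kinetochore and of the spindle assembly checkpoint: NDC80, KNL1, CENPE, CENPF, TTK, BUB1, BUB1B, BUB3, MAD1L1 and MAD2L1. They were chosen by name for their role. Every called peak of N6-methyladenosine (m6A, an adenosine that carries a methyl group) whose summit lay in the RefSeq span of one of them was taken, introns and both strands included. This gave 360 peaks in 124 loci, of 66409 loci in all. The series enriched m6A-bearing fragments with an antibody from chromatin-associated, ribosome-depleted RNA and sequenced them (MeRIP-seq). The cells were A375, an established human melanoma line. Of its 32 samples, 4 are used here: the 2 libraries labelled shControl, listed as WT, and the 2 labelled shMETTL3, listed as METTL3 knockdown. The peak names of the latter lists carry the letters ko, and the labels were followed here. METTL3 is the enzyme that writes most m6A, and the labels name neither the hairpin sequences nor single clones.

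The kinetochore is the protein assembly that joins a centromere to spindle microtubules. Its outer layer holds the NDC80 complex, which grips the microtubule, and the scaffold KNL1, on which checkpoint proteins gather. At a kinetochore without microtubules, the kinase TTK (also called MPS1) phosphorylates KNL1, BUB1 and BUB3 bind there, and MAD1 and MAD2 are recruited. MAD2, BUBR1 (the product of BUB1B) and BUB3 then hold back CDC20 and with it the anaphase-promoting complex. CENPE is a kinesin that moves chromosomes to the spindle equator, and CENPF is a large coiled-coil protein of the outer kinetochore and of G2 nuclei.

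The lists held 45345 and 47692 peaks in control and 44108 and 42969 in knockdown. The METTL3 gene had 5 peaks in each of the 4 lists, which does not measure its RNA. Of 8 melanocyte lineage markers only MITF held a peak, in every list; KRT10, of 4 keratinocyte markers, had one in both knockdown lists, LUM, of 4 fibroblast markers, in knockdown replicate 2, and none of 4 leukocyte markers had any. Their part in the results was not tested. Read depth is unknown. Nothing in the labels says that the replicates were separate cultures, so their spread may be technical.

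RefSeq start sequences were at hand for 7 of the 10 genes, and in 4 of these a peak covered bases 21 to 50 of the transcript. This stretch is shown for these 4, since it is where sequence and peaks can be set side by side (GRCh38.p14, the build of the lists). Capitals mark a match to the m6A sequence context known as DRACH, which stands for 18 words of 5 bases: A, G or T, then A or G, then AC, then A, C or T. Both strands were searched.

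BUB1B, chr15:40161089-40161118, plus strand: ttgttagggagtcgtgtacgtgccttggtc
NDC80, chr18:2571577-2571606, plus strand: ggccgaggaaGGACCtggtgttttgatgac
CENPE, chr4:103198294-103198323, minus strand: taggatggcggaggaaggagccgtggccgt
CENPF, chr1:214603215-214603244, plus strand: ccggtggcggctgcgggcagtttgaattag

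The BUB1B stretch was covered by a peak in all 4 lists, with summits at bases 59, 57, 129 and 67 in control replicates 1 and 2 and knockdown replicates 1 and 2. The NDC80 stretch holds the word GGACC, which begins at base 31 and is the only match on the transcribed strand among these stretches. It was covered in control replicate 2 and in both knockdown lists, but the summits lay further in, at bases 286, 287 and 284. The CENPE stretch was covered only in knockdown replicate 2 and the CENPF stretch only in knockdown replicate 1. On the opposite strand, BUB1B, NDC80 and CENPF have 1 match each. Over the 35116 starts of the table, 32.6% hold a match on the transcribed strand in the same window and 56.3% on either strand. A match is a description and not a methylated site.

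Of the 10 genes, 8 carried peaks. BUB3, which binds BUB1 and BUBR1 to phosphorylated KNL1, and MAD2L1, which encodes the checkpoint effector MAD2, had no peak in any list. They are the shortest members, with spans of 16.1 and 11.2 kb. The others span 37.9 to 417 kb. MAD2L1 lies on chromosome 4 from 120055623 to 120066848 and BUB3 on chromosome 10 from 123154402 to 123170467. A peak list does not give RNA levels, so an absent peak says nothing of the level of these RNAs.

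The total number of member peaks was somewhat higher in both knockdown lists, but single genes lay on opposite sides. There were 84 and 89 member peaks in control replicates 1 and 2 and 94 and 93 in knockdown. The means were 86.5 ± 3.54 in control and 93.5 ± 0.707 in knockdown (SD, n = 2 each; exact two-sided permutation p = 0.333, the smallest that 2 against 2 libraries allow). Without MAD1L1 the counts were 78 and 84 in control and 75 and 74 in knockdown, so the order of the groups turned. With only peaks of a fold enrichment of at least 4 (the value that the authors' peak caller gave at the summit, on the scale of its own library) it turned as well, to 41.5 in control and 36.5 in knockdown on average. In bulk RNA, fewer cells that transcribe a gene and less of its RNA per cell cannot be told apart, and peak lists do not separate either from less methylation.

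**Figure D1:**
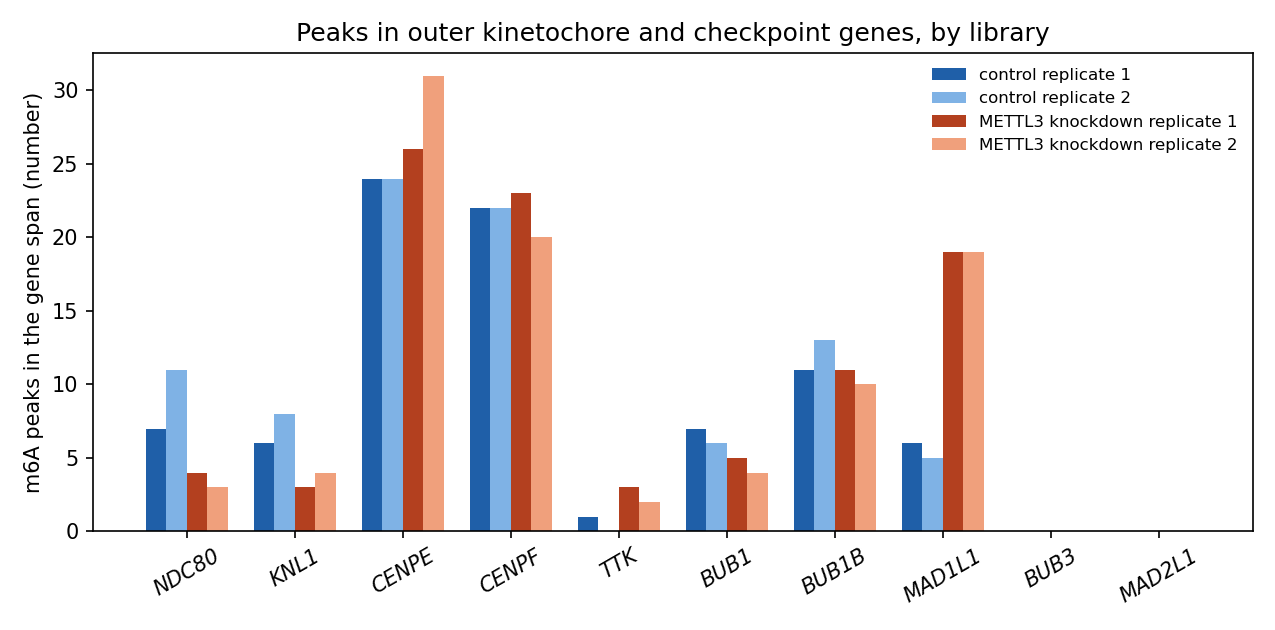
Number of m6A peaks (vertical axis) in the span of each member gene (horizontal axis), with 1 bar for each of the 4 libraries. MAD1L1 held 6 and 5 peaks in control and 19 and 19 in knockdown, NDC80 held 7 and 11 against 4 and 3, and BUB3 and MAD2L1 held none.

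Same-strand peaks of the 4 lists that overlapped by 1 bp or more were joined into loci. A locus is called control-only if both control lists and neither knockdown list hold it, and knockdown-only in the reverse case. Of the 124 member loci, 56 (45.2%, exact 95% interval 36.2% to 54.3%) were in all 4 lists, against 35.7% of all loci. CENPE and CENPF held 36 of these 56, out of their 58 loci (62.1%). The share was 44% in BUB1, BUB1B and TTK, 22.7% in MAD1L1 and 21.1% in NDC80 and KNL1. Control-only were 12 of the 75 loci held by both control lists (16%, exact 95% interval 8.55% to 26.3%), against 22.6% over all 36660 such loci. Knockdown-only were 16 of 79 (20.3%, 12% to 30.8%), against 18.9% over all 33195. Both pooled shares were near those of all loci, whose values lie within the members' intervals, but they mix unlike genes. In CENPE and CENPF they were 3 of 43 (6.98%) and 2 of 43 (4.65%). Without these 2 genes, control-only were 9 of 32 (28.1%, 13.7% to 46.7%) and knockdown-only 14 of 36 (38.9%, 23.1% to 56.5%). The last interval lies above the 18.9% of all loci, but 10 of these 14 loci were in MAD1L1, where knockdown-only were 10 of 16 (62.5%). They were 3 of 15 (20%) in BUB1, BUB1B and TTK and 1 of 5 (20%) in NDC80 and KNL1, near the share of all loci. Without MAD1L1 but with CENPE and CENPF, the control-only and knockdown-only shares were 12 of 70 (17.1%) and 6 of 63 (9.52%). These intervals cover counting error only and take loci of a gene as independent, which they are not.

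The members differed from each other in these classes. MAD1L1 alone held 10 of the 16 knockdown-only loci and none of the 12 control-only ones. NDC80 held 4 control-only loci, BUB1, KNL1 and CENPE 2 each, and BUB1B and CENPF 1 each. In library counts, MAD1L1, TTK and CENPE had more peaks in both knockdown lists than in either control list, and NDC80, KNL1 and BUB1 fewer. Among all 9456 genes with at least 5 peaks over the 4 lists, 19.2% lay wholly higher in knockdown and 27.7% wholly higher in control. The 3 and 3 of 8 members are to be read against these shares, and with so few genes no more can be said of the set.

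**Figure D2:**
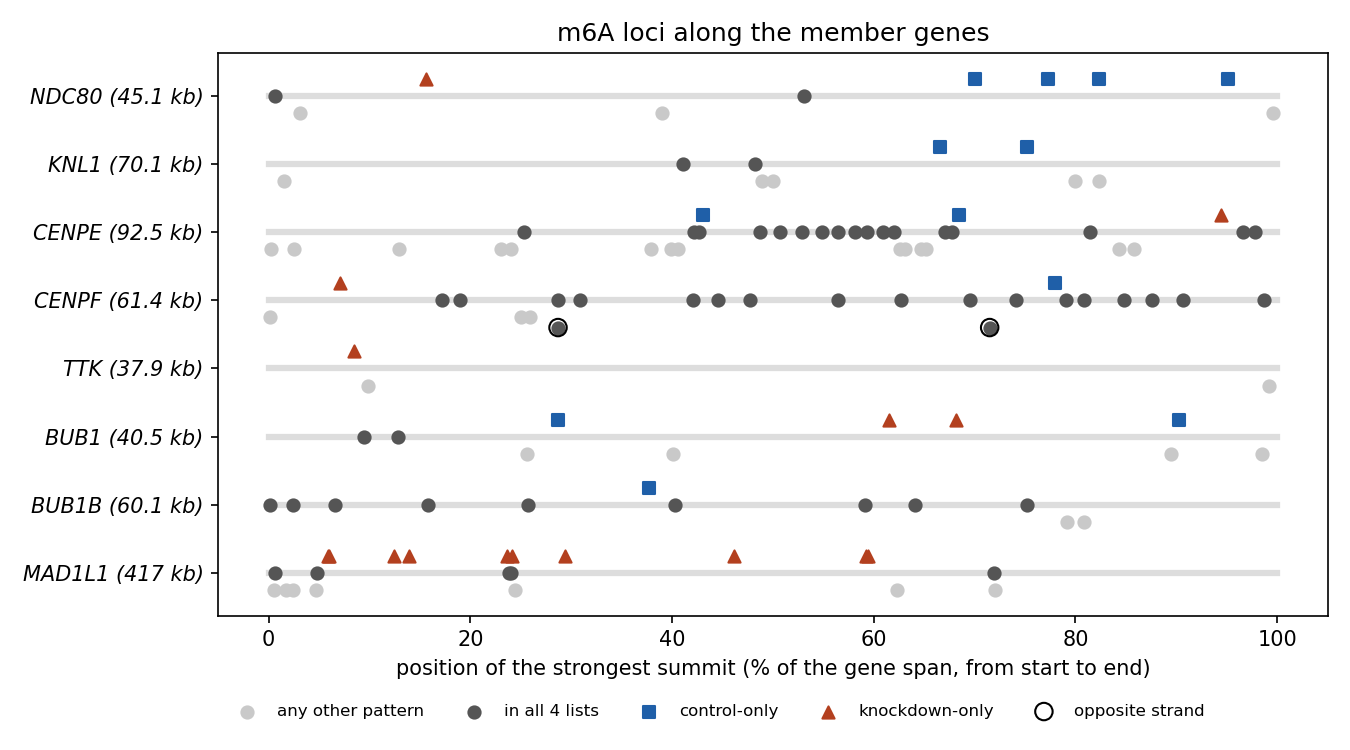
Position of each locus along the 8 member genes with peaks (horizontal axis, % of the gene span from start to end, at the strongest summit), with 1 row a gene. Grey marks loci in all 4 lists, squares control-only, triangles knockdown-only, pale points any other pattern, and rings the opposite strand of CENPF; the 4 squares of NDC80 lie between 70% and 95.1% of its span, and the 10 triangles of MAD1L1 between 5.88% and 59.5%.

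NDC80 encodes the microtubule-gripping subunit after which its complex is named, and spans chromosome 18 from 2571557 to 2616635 on the plus strand. Its peak counts were 7 and 11 in control and 4 and 3 in knockdown, and the groups did not overlap (means 9 ± 2.83 and 3.5 ± 0.707, SD, n = 2 each; exact permutation p = 0.333). With folds of at least 4 the counts were 3 and 2 against 1 and 1, so the difference shrank from -5.5 to -1.5 peaks a list and kept its direction. The control-only loci lay in the distal part of the gene. Beyond 50% of the span, control replicates held 5 and 7 peaks and each knockdown list 1, at 53%. The 4 control-only loci lay at 70%, 77.3%, 82.4% and 95.1% of the span. The strongest, at 2606286 to 2606439 on chromosome 18, had folds of 5.60 and 6.02 in control replicates 1 and 2. Within their lists these folds stood at percentiles 82.5 and 89.1. The next, at 2608548 to 2608810, had 3.46 and 3.49.

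The start of NDC80 kept its locus in every list. At 2571533 to 2572476 the folds were 4.53 and 3.56 in control and 6.41 and 6.42 in knockdown, or percentiles 66.7 and 47.3 against 86.8 and 86.7. Here the knockdown values were above both control values, while the control-only loci of the same gene had no knockdown peak. The start locus was called as 2 peaks in each control list, the strongest 273 and 287 bp wide. In each knockdown list it was 1 peak, of 944 and 852 bp, so the folds belong to peaks of unlike width. The split also adds to the control peak counts of the gene. A single knockdown-only locus lay at 2578290 to 2578644, with folds of 2.59 and 2.63. Folds are set by each library's own scale, so a difference between lists is a description.

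KNL1, the scaffold for BUB1, BUB3 and BUBR1, had 6 and 8 peaks in control and 3 and 4 in knockdown, again without overlap (exact permutation p = 0.333). It spans chromosome 15 from 40594249 to 40664342, and all its peaks were on the plus strand. With folds of at least 4 the counts were 5 and 5 against 3 and 3, a difference of -2 where it was -3.5. Its widest locus was shared by all. At 40620515 to 40625610 on chromosome 15, a single peak of 5070 bp in control replicate 1 and of 5038 bp in control replicate 2 matched one of 5040 bp in knockdown replicate 1 and one of 4536 bp in knockdown replicate 2. All 4 of these peaks were wider than 99.9% of the peaks of their list. Knockdown replicate 2 had a second peak in the locus, of 307 bp with a fold of 4.77, which adds to its peak count. KNL1 is known for an unusually long internal exon, but exon annotation was not used here. Folds of the 4 wide peaks were 8.23, 4.87, 7.48 and 8.53 in the same order, and control and knockdown overlapped.

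Outside this block KNL1 held narrower loci. The one at 40627943 to 40628137 was in all 4 lists, with folds of 4.63, 5.68, 4.58 and 4.24. The stronger control-only locus, at 40646846 to 40647022, had 4.69 and 5.06, and the weaker, at 40640819 to 40640975, had 2.71 and 2.91. These lay at 75.2% and 66.6% of the span. The furthest peak of knockdown replicate 2 lay at 48.3%, but that of knockdown replicate 1 at 79.9%, within the range of the control lists (82.4% and 79.9%). So the distal part of KNL1 was without a peak in 1 knockdown list, and that of NDC80 beyond 53.1% in both.

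CENPE had the most loci of the set, 34 along the 92.5 kb of chromosome 4 from 103105811 to 103198343 (minus strand), of which 17 were in all 4 lists. Of 14109 genes with a peak, 54 had more such loci. Its counts were 24 and 24 in control and 26 and 31 in knockdown (means 24 ± 0 and 28.5 ± 3.54, SD, n = 2 each; exact permutation p = 0.333). This order turned with folds of at least 4, to 14 and 13 in control and 9 and 11 in knockdown. Of its loci, 6 were in 1 knockdown list and no other, 5 of them with a fold under 4, and 0 were in 1 control list alone.

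The shared CENPE loci were densest in the middle of the gene, where 13 of the 17 lay between 40% and 70% of the span, limits chosen after the positions were seen. The highest-ranked was at 103145115 to 103146234 on chromosome 4, where the strongest peaks had folds of 7.71, 7.03, 7.61 and 10.9 in control replicates 1 and 2 and knockdown replicates 1 and 2. All stood at percentile 93.2 or higher within their list. Each control list had 1 peak there, of 1099 and 1091 bp, with its summit at 57.4% of the span. Each knockdown list had 2, and the stronger, of 345 and 334 bp, had its summit at 56.4%. The other knockdown peaks, of 651 and 571 bp with summits at 57.4%, had folds of 5.51 and 3.82, below both control values. The split also adds to the knockdown peak counts of the gene. The locus at 103151277 to 103151513 had folds of 11.2 and 8.90 in control and 6.57 and 5.92 in knockdown. Both control values were above both knockdown values. At 103140861 to 103141166 the folds were 7.80, 7.41, 6.51 and 6.94.

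Control-only loci of CENPE lay at 103158329 to 103158487, with folds of 5.79 and 5.26, and at 103134890 to 103135240, with 3.41 and 3.005. Its knockdown-only locus, at 103110902 to 103111101, had 4.21 and 4.26. Each of them lay in the interior of the gene, with shared loci on both sides. A strong locus at 103138393 to 103138589 was called in both control lists (6.92 and 6.95) and in knockdown replicate 2 (6.75) but not in knockdown replicate 1. Its percentiles were 92.2, 94.2 and 88.9 in the lists that held it.

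CENPF, on chromosome 1 from 214603195 to 214664571 (plus strand), differed little between the groups. It held 22 and 22 peaks in control and 23 and 20 in knockdown (exact permutation p = 1). Of its 24 loci, 19 were in all 4 lists, and 44 genes had more. The highest-ranked locus, at 214658721 to 214658961 on chromosome 1, had folds of 5.76 and 6.48 in control and 6.90 and 6.27 in knockdown. The only control-only locus, at 214650919 to 214651406, had 2.99 and 3.80, and the only knockdown-only one, at 214607249 to 214607653, had 3.97 and 5.72. The latter also lies in the span of the pseudogene ABHD17AP3.

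Like KNL1, CENPF carried very wide peaks. One spanned 3404 to 3421 bp in the 4 lists and another 2898 to 2911 bp, each as a single peak in every library. The starts of the wider one fell between 214639799 and 214639825. Their folds were modest, from 2.76 to 3.89. They lay next to each other, at 214639799 to 214643228 and 214644461 to 214647372. No other member had a peak of 1500 bp or more.

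CENPF was also the only member with peaks on its opposite strand. A minus-strand locus at 214620682 to 214620918 had folds of 6.89 and 5.28 in control and 4.07 and 4.83 in knockdown, and one at 214646886 to 214647223 had 7.59, 5.50, 5.18 and 5.58. A plus-strand locus of CENPF overlapped each of them, in the second case the narrower of the wide peaks. The plus-strand folds there were 2.54 to 2.97 and 2.76 to 3.89, below the minus-strand folds of every list. Over all 43489 loci in a single gene of known strand, 3.94% lay on the opposite strand. Neither summit lies in another gene of the RefSeq table. Of the member loci 4 (3.23%) overlapped one of the other strand, against 3.47% of all loci.

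TTK, the kinase at the head of the checkpoint, had few and weak peaks: 1 and 0 in control and 3 and 2 in knockdown. It spans chromosome 6 from 80004649 to 80042527, and all its peaks were on the plus strand. A knockdown-only locus 3189 bp inside the gene, at 80007702 to 80007968 on chromosome 6, had folds of 3.46 and 3.42. The locus 297 bp from the gene end, at 80042125 to 80042379, was called in control replicate 1 (2.26) and in both knockdown lists (2.75 and 2.25). The 6 peaks stood at percentiles of 6.85 to 36.8 within their lists. None was left at a fold of at least 4 or a −log10 q of at least 20.

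BUB1, a kinase that marks centromeric chromatin and binds KNL1, held loci of both kinds. It lies on chromosome 2 from 110637528 to 110678063, on the minus strand. Counts were 7 and 6 in control and 5 and 4 in knockdown (exact permutation p = 0.333). They evened out with folds of at least 4, at 2 and 2 against 3 and 1. Its control-only locus at 110666386 to 110666550 on chromosome 2 had folds of 4.10 and 3.13, percentiles 57.0 and 33.3 within their lists. The other, at 110641043 to 110641567, had 2.88 and 2.80, percentiles 21.2 and 22.8. The stronger knockdown-only locus, at 110650336 to 110650653, had 5.07 and 6.32, and the other, at 110653005 to 110653247, had 3.49 and 3.40. Both loci in all 4 lists lay within 12.9% of the span from the start, the higher-ranked at 110674118 to 110674467 with folds of 3.84, 5.60, 4.31 and 2.90.

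BUB1B, which encodes the checkpoint effector BUBR1, kept most of its loci. It spans chromosome 15 from 40161069 to 40221123 on the plus strand. It had 11 and 13 peaks in control and 11 and 10 in knockdown (exact permutation p = 0.667), and 9 of its 12 loci were in all 4 lists. The only control-only locus, at 40183618 to 40183775 on chromosome 15, had folds of 3.02 and 4.91, and there was no knockdown-only one. Presence thus differed little between groups, while ranks within the lists stood apart. The median percentile of its peaks was 56.9 and 54.5 in control and 22.6 and 16.4 in knockdown. The share of all genes whose medians stand apart in this way is not given here, so the separation has no background to be read against.

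Several BUB1B loci show this difference in rank. At the gene start, 40161030 to 40161676, the folds were 6.72 and 9.18 in control and 1.55 and 3.73 in knockdown. In knockdown replicate 1 a single peak of 640 bp covered the locus, while the strongest peaks of the other lists were 175 to 200 bp wide. At 40196436 to 40196684 they were 5.51 and 5.12 against 1.89 and 2.08, percentiles 81.4 and 80.4 against 2.36 and 4.49. The highest-ranked by its lowest percentile, at 40162172 to 40162730, had overlapping values of 4.12, 2.96, 3.42 and 3.92. Lists of unequal length and scale are compared here, so these ranks do not show a change by themselves. The summits of 8 BUB1B loci also lie in the span of the lncRNA gene LOC107984763, whose strand is not in the table used.

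**Figure D3:**
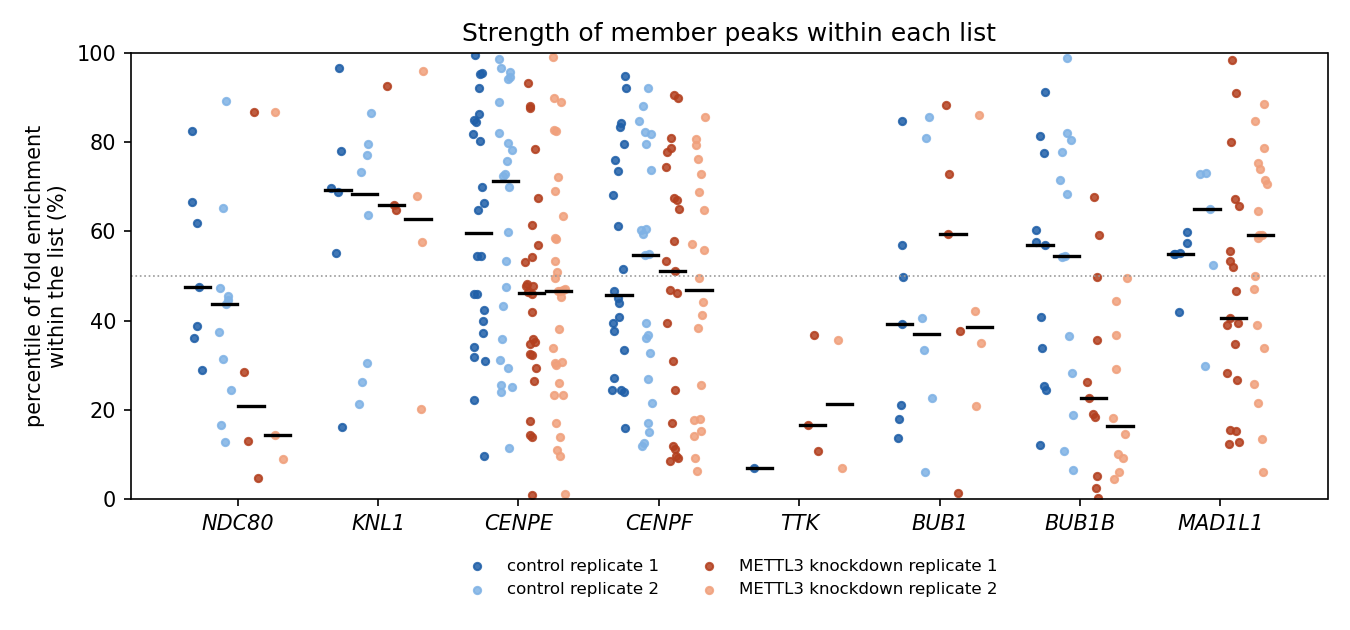
Percentile of the fold enrichment of every member peak within its own list (vertical axis), by gene and library (points), with the median of each as a black bar; the dotted line marks 50%, the middle of each list. Medians of BUB1B were 56.9 and 54.5 in control and 22.6 and 16.4 in knockdown, while those of CENPF were 45.8 and 54.8 against 51.1 and 46.9.

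Over all member peaks the median percentile was 54.7 and 54.5 in control and 43.9 and 45.2 in knockdown (exact permutation p = 0.333). Without MAD1L1 it was 53.1 and 54.4 against 45.9 and 41.8. NDC80 had medians of 47.5 and 43.7 against 20.8 and 14.3, and CENPE of 59.7 and 71.2 against 46.1 and 46.7. KNL1 had 69.3 and 68.5 against 65.9 and 62.8. How often the medians of other genes separate in this way is not given here. The groups overlapped in BUB1, in CENPF and in MAD1L1, where medians were 55.0 and 65.1 against 40.6 and 59.2. TTK stood the other way, with 6.88 for its single control peak against 16.6 and 21.3 in knockdown. Median folds of the member peaks were 4.01 and 3.79 in control and 3.71 and 3.76 in knockdown. Those of all peaks were 3.84 and 3.65 against 3.92 and 3.93. The members' folds were thus lower in knockdown and those of the whole lists higher, and both go into the lower percentiles.

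MAD1L1, which encodes the coiled-coil protein that carries MAD2 to unattached kinetochores, had the largest difference in peak number among the members. Its counts were 6 and 5 in control and 19 and 19 in knockdown (means 5.5 ± 0.707 and 19 ± 0, SD, n = 2 each; exact permutation p = 0.333). Of 14109 genes with a peak, 20 had a gain in knockdown larger than these 13.5 peaks a list, falls not counted. Of the genes with a peak, 318 were at least as long. It kept its direction with folds of at least 4, at 5 and 3 against 8 and 11, and with a −log10 q of at least 20, at 6 and 5 against 9 and 12. The difference was then 5.5 and 5 peaks a list. The gene spans chromosome 7 from 1815795 to 2232945, and all 49 peaks were on its own strand, minus.

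The 5 loci that MAD1L1 held in all 4 lists lay from 2812 bp to 300 kb inside the gene. The highest-ranked, at 2132562 to 2132857 on chromosome 7, had folds of 4.11 and 4.59 in control and 7.08 and 4.94 in knockdown. At 2212445 to 2213116 they were 4.21 and 3.03 against 10.1 and 6.18, both knockdown values above both control values. At 2230092 to 2230267, the shared locus nearest the start, they were 4.02 and 3.72 against 2.69 and 2.203, in the reverse order. Shared loci of the gene thus did not all stand on one side.

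The knockdown-only loci of MAD1L1 ranged widely in strength. The highest-ranked, at 2040451 to 2040689, had folds of 5.65 and 5.15, percentiles 80.04 and 73.9. The next, at 1985906 to 1986140, had 4.07 and 4.30. The lowest fold among the 10 loci was 2.57, at 2180882 to 2181133 in knockdown replicate 1, where knockdown replicate 2 had 5.53. Of the 10, 3 had a fold of at least 4 in both knockdown lists. Some lay beside shared loci: those at 2132019 to 2132404 and 2134075 to 2134573 flank 2 shared ones.

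All MAD1L1 loci lay in the first 72.1% of the span, the last summit 116503 bp before the gene end, and the distal part held no peak in any list. The gene is the longest member at 417 kb. Among the 8 genes with peaks it had the lowest density, 0.527 loci per 10 kb against 0.792 in TTK and 1.28 to 3.91 in the other genes with peaks. At 1984533 to 1985055 and 1985906 to 1986140 the summits also lie in the lncRNA gene LOC124901573, and without these 8 knockdown-only loci remained. Whether the loci fall in exons or introns was not determined.

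Loci of the set were mostly interior. Within the first 500 bp of a gene lay 4, of which the loci of BUB1B and NDC80 were in all 4 lists, and within the last 2000 bp another 4, of which 1, in CENPF at 214663462 to 214664076, was in all 4. That CENPF locus had folds of 3.66, 5.05, 5.74 and 4.15. By the summit of their strongest peak, all 12 control-only and all 16 knockdown-only loci were interior. So were 51 of the 56 loci in all 4 lists, and 2 more of these were on the opposite strand. The share over all loci was not determined. The control-only locus nearest to a gene end, in NDC80, had its strongest summit 2195 bp from it. A second peak of control replicate 2 in this locus had its summit nearer the end, at 96% of the span.

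Other genes of the pathway, a list of 46 that includes the rest of the NDC80 and MIS12 complexes, the RZZ and SKA complexes, the anaphase-promoting complex and microtubule-binding partners, gave a different balance. Of them 41 held a peak, 33 a locus in all 4 lists, 16 a control-only locus and 8 a knockdown-only locus. Of all 14109 genes with a peak, 4515 held a control-only locus and 4001 a knockdown-only one. Control-only were 39 of 162 loci (24.1%, against 22.6% of all) and knockdown-only 10 of 114 (8.77%, against 18.9%). Of 34 genes with at least 5 peaks, 13 lay wholly higher in control and 2 wholly higher in knockdown. Over all 9456 such genes the shares were 27.7% and 19.2%. Without MAD1L1, the knockdown-only share of the members was 6 of 63 (9.52%).

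TPR, the nuclear pore protein that tethers MAD1 in interphase, held most of both kinds: 14 loci in all 4 lists and 11 control-only. Its peak counts were 33 and 31 in control and 17 and 17 in knockdown. CKAP5, a microtubule polymerase, had 7 control-only loci and 1 knockdown-only, with 21 and 19 peaks against 9 and 12. SPAG5, a spindle protein, had 3 control-only loci with 13 and 15 against 10 and 10. CLASP1 and SKA2 had 2 knockdown-only loci each, CLASP1 beside 2 control-only ones. MAD1L1 and its pore partner TPR thus lay on opposite sides in peak number.

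**Figure D4:**
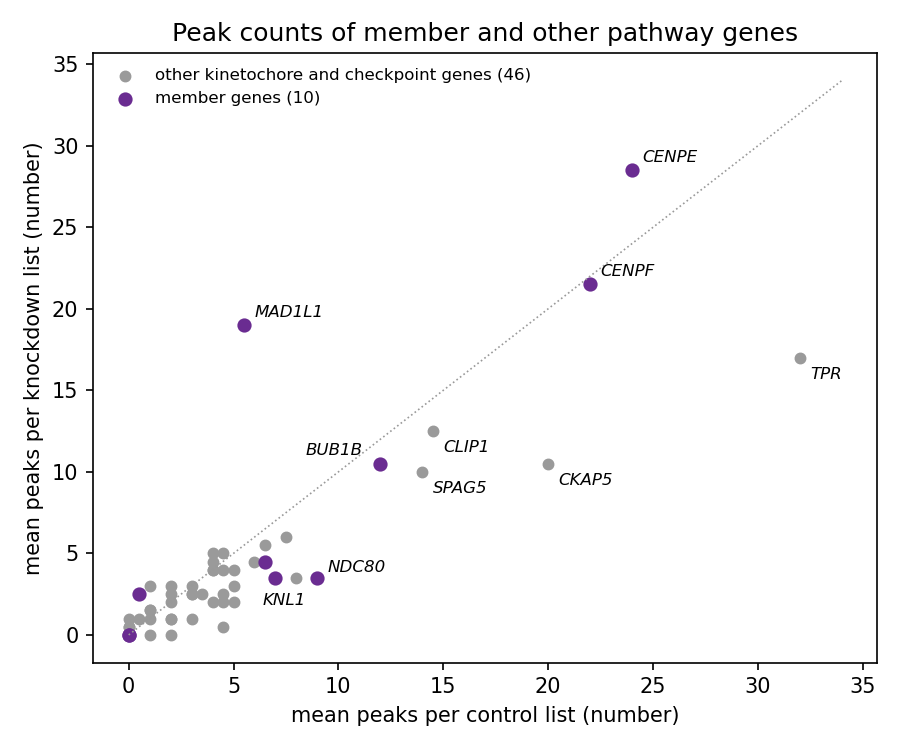
Mean number of peaks per control list (horizontal axis) and per knockdown list (vertical axis) for the 10 member genes (large points) and 46 other kinetochore and checkpoint genes (small points); the dotted line marks equal numbers. MAD1L1 lies farthest above the line, with means of 5.5 and 19, and TPR farthest below it, with 33 and 31 peaks in the control lists and 17 in each knockdown list.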

How the data were processed

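The 4 m6A immunoprecipitations are represented by the peak lists that the authors deposited, 1 per library and called per strand, per the peak names. Per the submitters' processing notes, the tools included MACS2 2.2.7.1, HISAT2 2.1.0, Bowtie2 2.4.2, Trim Galore 0.6.6 and SAMtools, with hg38 as build; no role is named for any. What part input and spike-in had is not given in the sources. The deposited fold is a ratio at the summit, p and q were deposited as −log10 values (smallest −log10 q 2.00), and the deposited score, which follows the −log10 q, was not used. Start, end and summit positions were used as deposited.

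Loci were merged over all 4 lists with Python 3.11.15 and pandas 2.3.3 (at least 1 bp, same strand) and tested on simulated peaks. Gene spans and start sequences came from RefSeq (GRCh38.p14); strands came from the start sequences for 7 members and from the peaks for TTK and KNL1. Named loci were, per gene, the all-list locus and up to 2 control-only and 2 knockdown-only loci with the highest lowest percentile, and further loci were chosen after their values were seen. In the wider list, the 3 genes with most loci of each kind were named, of which CKAP5 came in by symbol among ties. Members, lists and rules were chosen with earlier results of these data known, and the minimum of 5 peaks a gene after the counts were seen. Library values were compared by exact two-sided permutation tests over 2 against 2 libraries; 10 alternatives were run per result, with a replicate block for the peak counts. Shares have exact 95% binomial (Clopper-Pearson) intervals.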

Additional observations from a re-analysis of the deposited data

How the results depend on the processing

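Of 81 alternative values, 71 kept their direction or stayed near the value reported. With a fold of at least 4, the control-only share became 30% (25% over all loci), the loci in all 4 lists 12 and the knockdown-only loci 6; knockdown-only loci of MAD1L1 were then 3 and its shared loci 2, and the difference in member peaks turned to -5. With a −log10 q of at least 20, there were 8 knockdown-only loci, those of MAD1L1 were 4 and its shared loci 3, and the difference turned to -1.5. Stricter peak thresholds leave fewer peaks by construction. The difference, 7 peaks a list as reported, ranged from 4.5 to 9.5 without single replicates, the control-only loci from 13 to 18, the knockdown-only loci from 18 to 24 and those of MAD1L1 from 10 to 13; leaving out a list loosens these classes by construction. Equal list lengths, reciprocal overlap, ignoring strand and summits in 1 gene only moved no count by over 1.5 times and turned no difference. With the replicate block, a sign-flip over pairs of equal number, the exact permutation p was 0.5, the smallest possible, for the same difference of 7; nothing in the labels says that the numbers pair samples. Thresholds by gene, added after the data were seen, turned CENPE to -3.5 peaks with folds of at least 4. Read depth is unknown, so a missing peak may be a shallow one, and no p of 2 against 2 libraries can pass 0.05.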
